A study of Mus musculus with 1790 samples.

Results

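Nfia, Nfib, Nfix, Bcl11a, Bcl11b, Zeb2, Meis2 and Sp9 are 8 genes for transcription factors of developing and mature interneurons. They were taken as a listed set from the 49915 genes named in any of the 7 count tables. All 8 have a row in 6 of the tables, and the P15 table has no row for Sp9. The cells were mouse preoptic area (POA) and caudal ganglionic eminence (CGE) cells at E14.5 and Htr3a-GFP+ interneurons of the cortex after birth. The embryonic data were 1 droplet library each of wild-type POA (2106 cells) and CGE (4115 cells), 352 wild-type POA cells carrying FlashTag, a dye that marks cells dividing at the ventricle, and 418 POA cells sorted for Htr3a-GFP and Hmx3-Cre;R26tdTOM. The postnatal cells came from Hmx3-Cre::Htr3a-GFP; R26R-tdTOM mice. C1 chip cells of the upper layers of the somatosensory cortex were sorted tdTOM+ or tdTOM- at P15 (390 cells) and P30 (581 cells). Another 47 tdTOM+/GFP+ cells, of cortical layers 1 to 6, were aspirated after recording (patch-seq) at P14 to P25. The study names CD1 for the FlashTag embryos, a C57BL/6 background for the transgenic mice and both strains for the droplet embryos. Apart from the FlashTag dye, injected in utero with the dam anaesthetized, no group had a treatment.

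These groups limit what can be compared. Both Htr3a-GFP and Hmx3-Cre are transgenes, and tdTOM marks any cell whose lineage has used the Hmx3 driver, whatever it expresses later. The study describes several animals per stage, but no label ties a cell to an animal, so every library or sort was 1 sample and no test of a difference was possible. The values below are counts per 1000000 counts (CPM), that is a group's summed counts for a gene scaled to its total, or shares of cells with a count. Brackets hold exact 95% intervals, Poisson for CPM and Clopper-Pearson for shares. They account for counting error alone and are too narrow for the spread between animals. The Poisson intervals also leave out the spread between cells. A log2 fold compares the levels of 2 groups, each with 10 CPM added, and a member is called past 2-fold where the log2 fold is 1 or more in size. In each comparison the members' count is set beside the percentage of all genes of at least 10 CPM that were past 2-fold.

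Interneurons of the cortex are born outside it, in the ganglionic eminences and the POA, leave the cell cycle and migrate in. Nuclear factor I proteins (Nfia, Nfib, Nfix) bind DNA as dimers and are known from radial progenitors, glia and maturing neurons. Bcl11a and Bcl11b are zinc finger proteins that work with chromatin remodelling complexes in post-mitotic neurons, Zeb2 is an E-box-binding zinc finger repressor, Meis2 a TALE homeodomain protein and Sp9 an Sp-family zinc finger protein of striatal neurons and interneurons. Neurogliaform cells (NGCs) are Lamp5 interneurons that release GABA diffusely.

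In the mouse genome (GRCm38) all members are protein-coding. Nfia lies at chr4:97772734-98118874 on the plus strand and Nfib at chr4:82290173-82705750 on the minus strand. Nfix lies at chr8:84699876-84800344 (minus), Bcl11a at chr11:24078056-24174123 (plus) and Bcl11b at chr12:107910403-108003602 (minus). The other members are on chromosome 2, Zeb2 at chr2:44983632-45117395 (minus), Meis2 at chr2:115863064-116065839 (minus) and Sp9 at chr2:73271925-73284706 (plus). For 7 of the 8 genes (all but Nfib) RefSeq promoter sequences of GRCm38.p6 were at hand, from 250 bases before to 50 after a start. The promoters of the members that were past 2-fold higher in post-mitotic CGE cells (Bcl11a, Bcl11b and Sp9) are printed because these 3 genes stood higher in the same cells. Capitals mark TTGGC or its reverse GCCAA, the half-site of nuclear factor I, and GGGCGG or its reverse CCGCCC, the GC box of Sp proteins. No letter belongs to both motifs. The windows are chr11:24080445-24080744 (plus) for Bcl11a, chr12:108003365-108003664 (minus) for Bcl11b and chr2:73271676-73271975 (plus) for Sp9.
Bcl11a: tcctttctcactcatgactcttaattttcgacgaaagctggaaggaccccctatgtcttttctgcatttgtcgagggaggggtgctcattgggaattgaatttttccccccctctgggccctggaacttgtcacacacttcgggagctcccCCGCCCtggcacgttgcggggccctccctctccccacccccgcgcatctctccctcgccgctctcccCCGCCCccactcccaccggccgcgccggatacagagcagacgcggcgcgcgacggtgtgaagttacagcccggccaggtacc
Bcl11b: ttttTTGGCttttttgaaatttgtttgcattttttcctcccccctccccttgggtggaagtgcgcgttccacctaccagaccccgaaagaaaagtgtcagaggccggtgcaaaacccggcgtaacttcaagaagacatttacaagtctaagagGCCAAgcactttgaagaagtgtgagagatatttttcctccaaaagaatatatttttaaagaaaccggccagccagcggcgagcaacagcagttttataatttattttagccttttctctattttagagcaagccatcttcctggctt
Sp9: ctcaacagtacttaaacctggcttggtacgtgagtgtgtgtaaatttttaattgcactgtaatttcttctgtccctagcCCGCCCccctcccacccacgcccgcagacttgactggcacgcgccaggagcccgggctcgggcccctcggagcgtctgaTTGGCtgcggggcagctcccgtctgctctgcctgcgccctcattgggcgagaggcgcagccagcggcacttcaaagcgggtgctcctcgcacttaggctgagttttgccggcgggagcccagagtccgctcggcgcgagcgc
The Bcl11a window holds 2 GC boxes and no nuclear factor I half-site, Bcl11b holds 2 half-sites and no GC box, and Sp9 holds 1 of each. Over all 32851 promoters of the same length, 46.7% hold the half-site and 35.7% the GC box, so the matches describe these windows and no more. The 3 promoters differ in base composition, with 63% G or C in Bcl11a, 43% in Bcl11b and 63.7% in Sp9 against a median of 52.7%.

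The first question was how the members differ between cells before and after they leave the cell cycle. Droplet cells were thinned to 3200 UMIs and called post-mitotic where 7 neuronal genes (Dcx, Tubb3, Gad1, Gad2, Dlx5, Dlx6, Stmn2) had more counts than 7 progenitor genes, and progenitor-like in the opposite case. This gave 1530 post-mitotic and 536 progenitor-like POA cells, and 2300 and 1178 CGE cells. None of the 8 members was used to make the classes. In the CGE the Bcl11 genes and Sp9 were higher in post-mitotic cells, and the nuclear factor I genes were lower. Bcl11b, a marker of young striatal neurons as well as of interneurons, stood at 419 CPM (409 to 430) after exit and 98.6 CPM (92.5 to 105) before it, a log2 fold of 1.98. Bcl11a stood at 367 (358 to 377) versus 117 CPM (110 to 124), a log2 fold of 1.57, and Sp9 at 89.1 (84.5 to 93.9) versus 36.6 CPM (32.9 to 40.6), a log2 fold of 1.09. These 3 of 8 members were past 2-fold, with 11.1% of all genes past 2-fold in this comparison. Single cells overlapped throughout: Bcl11b ranged from 0 to 3500.82 CPM with a median of 324 in post-mitotic CGE cells, and from 0 to 1284.36 CPM with a median of 0 in progenitor-like ones.

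The POA had the Bcl11 genes on the same side, with smaller steps over all cells. Bcl11b was at 162 CPM (156 to 168) in post-mitotic and 65.5 CPM (58.5 to 73.1) in progenitor-like cells, a log2 fold of 1.19, and Bcl11a at 250 (242 to 257) versus 108 CPM (99.4 to 118), a log2 fold of 1.13. These were the 2 of 8 members past 2-fold, where 8.17% of all genes were. Leaving out cells with 3 or more UMIs of other cell types' genes, a list that includes genes progenitors share with astrocytes, kept 88 post-mitotic and 20 progenitor-like POA cells and 637 and 151 CGE cells. These UMIs were not thinned, so a deeper cell reached the limit more easily. The list also holds 3 red blood cell genes, at 1153 CPM in post-mitotic POA cells, and Isl1, Ebf1 and Foxp1. At 3200 UMIs, 805 of the 1530 post-mitotic POA cells had a count of Isl1, Ebf1 or Foxp1. How far the filter removed cells for these reasons was not tested. In the cells kept the order of the steps turned, with Bcl11b at a log2 fold of 2.06 in the POA and 1.70 in the CGE and Bcl11a at 1.12 and 1.02. Sp9 was low in both classes, at 27.2 CPM (24.8 to 29.8) and 11.6 CPM (8.74 to 15.0). The share of POA cells with an Sp9 count at 3200 UMIs was 9.02% (7.63 to 10.6) after exit and 2.99% (1.72 to 4.80) before it, and without thinning 20% and 7.65%.

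The nuclear factor I genes go against the name post-mitotic at this stage, since each was lower after exit in both regions. In the POA this was by little in the few cells with under 3 UMIs of other cell types' genes. Nfia went from 354 CPM (337 to 371) in progenitor-like POA cells to 183 CPM (176 to 190) in post-mitotic ones, and from 354 (342 to 366) to 173 CPM (167 to 180) in the CGE. Nfix went from 160 (149 to 172) to 89.8 CPM (85.3 to 94.5) in the POA and from 157 (150 to 166) to 79.0 CPM (74.6 to 83.5) in the CGE. Nfib was the exception in size: it went from 576 (555 to 598) to 327 CPM (319 to 336) in the POA, but only from 594 (579 to 610) to 501 CPM (490 to 513) in the CGE. None of the 6 log2 folds of summed levels reached 2-fold, with values from -0.99 to -0.24. This depended on the measure for Nfix. Its share of cells at 3200 UMIs was 17.7% after and 38.2% before exit in the POA, and 17.1% and 37.1% in the CGE. The log2 ratios of these shares were -1.11 and -1.12, while those of Nfia and Nfib stayed under 2-fold in both regions. In the cells with under 3 UMIs of other cell types' genes, the POA log2 folds were -0.22 (Nfia), -0.06 (Nfib) and -0.38 (Nfix). The CGE ones were -1.33, -0.27 and -1.23 in the same order.

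Zeb2 and Meis2 took opposite directions in the regions in their summed levels over all cells, and this depended on the cells kept. Zeb2 was at 95.7 CPM (91.0 to 101) in post-mitotic and 132 CPM (122 to 143) in progenitor-like POA cells, but at 294 (286 to 303) versus 209 CPM (200 to 219) in the CGE. Meis2 was at 108 (103 to 114) versus 156 CPM (145 to 168) in the POA and at 624 (612 to 637) versus 514 CPM (499 to 528) in the CGE. The Meis2 step in the CGE lay in the amount per cell and not in the number of cells: at 3200 UMIs, 56.2% (54.1 to 58.2) of post-mitotic and 72.2% (69.5 to 74.7) of progenitor-like CGE cells had a count. Its highest post-mitotic CGE cell reached 5652 CPM, against 3222.52 CPM among progenitor-like cells. In the cells with under 3 UMIs of other cell types' genes neither gene had opposite directions. Zeb2 then had log2 folds of 0.37 in the POA and 0.45 in the CGE, and Meis2 -1.26 and -0.22. The POA values rest on 88 post-mitotic and 20 progenitor-like cells. Isl1, which is among those genes, was at 167 CPM in the sorted tdTOM+/GFP+ POA cells as well.

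**Figure D1:**
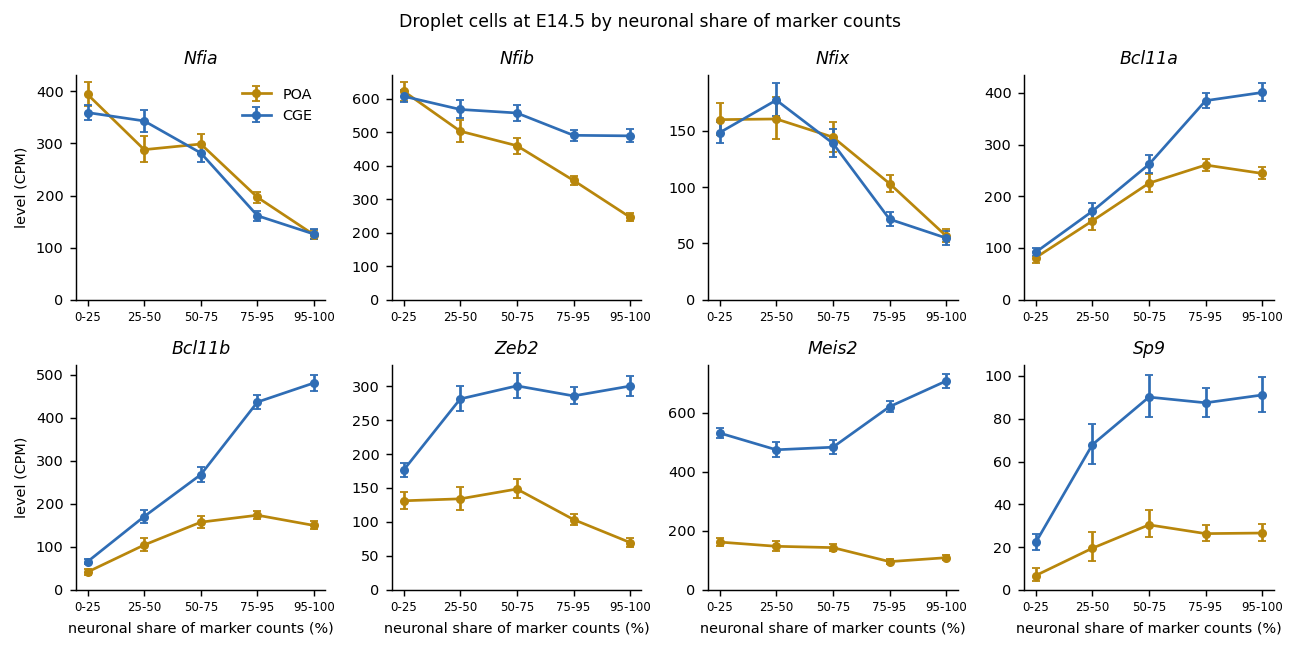
Level of each member (vertical axis, CPM of summed counts) in droplet cells grouped by the neuronal genes' share of the marker counts (horizontal axis, %), POA in ochre and CGE in blue; bars are exact Poisson 95% intervals. The nuclear factor I genes are lower and Bcl11a and Bcl11b higher at the right end than at the left, and the regions part for Meis2, Zeb2 and Sp9, with Meis2 at 109 CPM in the last POA group and 708 CPM in the last CGE group.

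Splitting the cells into 5 groups by the neuronal share of the 14 markers' counts showed when each step came. Bcl11b in the CGE went from 65.5 CPM (59.5 to 71.9) in the 0 to 25% group through 268 (251 to 285) in the 50 to 75% group to 481 CPM (463 to 500) in the 95 to 100% group. In the POA it went from 41.5 (34.5 to 49.5) to 157 CPM (144 to 172) in the 50 to 75% group and stayed near that, at 173 (164 to 184) and 150 CPM (141 to 159) in the last 2 groups. Bcl11b thus reached its POA level by the middle group, while its CGE level was higher in each later group. Zeb2 in the CGE made its step early, from 176 (166 to 187) to 281 CPM (263 to 301) between the first 2 groups, and then ranged only from 281 to 300 CPM. In the POA it was lower in each of the last 2 groups, from 148 (135 to 163) in the middle group to 69.6 CPM (63.6 to 76.1). Nfia ended at 124 CPM (116 to 133) in the POA and 126 CPM (116 to 136) in the CGE, intervals that overlap, from 394 (372 to 417) and 359 CPM (345 to 374). Nfib ended at 246 CPM (234 to 258) in the POA and 489 CPM (470 to 508) in the CGE, from 622 and 607 CPM with overlapping intervals at the start.

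Between the regions, 4 of 8 members were past 2-fold in post-mitotic cells, all lower in the POA, where 3.41% of all genes were past 2-fold in either direction. Of those genes 186 were higher and 118 lower in the POA. Each region was 1 library, so region and library cannot be told apart, and the POA post-mitotic cells are the same ones as above. Meis2 had the largest difference of the set, 108 CPM in the POA and 624 in the CGE, a log2 fold of -2.42. At 3200 UMIs it was counted in 16.4% (14.6 to 18.4) of POA and 56.2% of CGE cells. Zeb2 was at 95.7 versus 294 CPM (log2 fold -1.53), with a count in 22.2% (20.1 to 24.3) of POA and 52.0% (49.9 to 54.0) of CGE cells at 3200 UMIs. For Sp9 the log2 fold was -1.41 and the shares were 9.02% and 24.3% (22.5 to 26.1). For Bcl11b the log2 fold was -1.32, with 34.2% (31.9 to 36.7) of POA and 65.4% (63.4 to 67.3) of CGE cells. Nfia (log2 fold 0.08) and Nfix (0.17) were near equal, and Nfib (-0.60) and Bcl11a (-0.54) were lower in the POA without reaching 2-fold. The members' median was -0.96, against -0.00440 over all genes.

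Genes listed for other cell types differed between the libraries. Whether their counts came from other cells or from the POA and CGE cells themselves was not tested, nor was their part in these results. The summed level of 3 red blood cell genes, all counted, was 1153 CPM in post-mitotic POA and 381 CPM in post-mitotic CGE cells, and that of 5 glutamatergic genes 106 and 61.4 CPM. Lhx5, of the Cajal-Retzius list, made up 100 of that list's 120 CPM in the POA, against 14.9 CPM for the list in the CGE. Lhx5 was also at 29.4 CPM in the sorted tdTOM+/GFP+ POA cells. Leaving out cells with 3 or more unthinned UMIs of the other cell types' lists, the red blood cell and striatal projection neuron lists among them, kept only 88 POA and 637 CGE cells. Meis2 (-2.50) and Zeb2 (-1.23) then remained past 2-fold, and Bcl11b (-0.83) and Sp9 (-0.82) did not. The region labels were checked with Hmx2 and Hmx3, genes of POA precursors: 215 of 1530 post-mitotic POA cells and 3 of 2300 CGE cells had a count at 3200 UMIs. No cell type of these libraries is known to lack the members, so the share of cells with a UMI from free RNA was not measured.

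Within the post-mitotic cells the members went with different companions, all at 3200 UMIs. Lhx6 marks interneurons of medial origin. In the POA, 55.8% (49.6 to 61.9) of the 265 cells with an Lhx6 count also had Bcl11b, against 29.7% (27.2 to 32.3) of the 1265 cells without, and for Bcl11a the shares were 58.5% (52.3 to 64.5) and 42.5% (39.8 to 45.3). In the CGE no such gap was seen: 65.7% (61.7 to 69.5) of the 606 cells with Lhx6 and 65.3% (63.0 to 67.6) of the others had Bcl11b.

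Htr3a, the serotonin receptor gene whose promoter drives the GFP, went with Nfib. Nfib was counted in 68.4% (61.3 to 75.0) of the 187 POA cells with Htr3a and 40.4% (37.8 to 43.1) of the 1343 without. In the CGE the shares were 73.9% (70.7 to 76.9) of 816 cells and 57.1% (54.5 to 59.6) of 1484. The reverse held for Hmx2 or Hmx3: among the 215 POA cells with either, 28.4% (22.5 to 34.9) had Nfib, against 46.4% (43.7 to 49.1) of the rest.

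Meis2 in the CGE went with genes of striatal projection neurons. It was counted in 69.0% (65.7 to 72.2) of the 817 CGE cells with Isl1, Ebf1 or Foxp1, at 907 CPM (870 to 944), and in 49.1% (46.5 to 51.7) of the other 1483, at 474 CPM (455 to 494). It was less frequent in CGE cells with Lhx6, at 42.1% (38.1 to 46.1) against 61.2% (58.8 to 63.5). Among cells with Htr3a alone, Meis2 was still higher in the CGE, at 398 CPM (374 to 423), than in the POA, at 56.8 CPM (39.3 to 79.4).

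Most post-mitotic cells held several members together. The median number of members with a count was 4 of 8 in the POA and 5 of 8 in the CGE, over all counts. In the POA 63 cells had all 8 and 59 had none, and in the CGE 98 had all and 4 had none. Bcl11a and Bcl11b were both counted in 713 of 1530 POA cells and in 1520 of 2300 CGE cells. Among the 306 POA cells with Sp9, 130 also had Meis2, and among the 908 CGE cells with Sp9, 637 did. The CGE cells were the shallower ones, with a median of 5747 counts against 7578.5.

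The C1 cells gave the same stage by sort. FlashTag+ cells were the brightest dye-labelled cells of wild-type POA, and tdTOM+/GFP+ cells were POA precursors of the Hmx3 lineage that express the Htr3a transgene, and the authors had removed clusters that were not GABAergic from both. Genotype, strain, dye injection with its surgery, sort and stage in the lineage therefore differ together and cannot be told apart. The nuclear factor I genes had the largest differences. Nfib was at 138 CPM (136 to 140) in tdTOM+/GFP+ and 1086 CPM (1080 to 1093) in FlashTag+ cells, a log2 fold of -2.89. Nfia was at 43.3 CPM (42.3 to 44.4) versus 410 CPM (406 to 414), a log2 fold of -2.98. Nfix was at 9.35 CPM (8.88 to 9.85) versus 135 CPM (132 to 137), a log2 fold of -2.90.

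In single cells the sorts overlapped for all 8 genes, although not equally. Nfib ran from 0 to 4351.16 CPM with a median of 964 in FlashTag+ cells, where 351 of 352 had a count. In tdTOM+/GFP+ cells it ran from 0 to 3697 CPM with a median of 2.76, and 243 of 418 had a count. A part of the tdTOM+/GFP+ cells thus held Nfib at levels like those of FlashTag+ cells, as the plot of single POA cells shows.

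**Figure D2:**
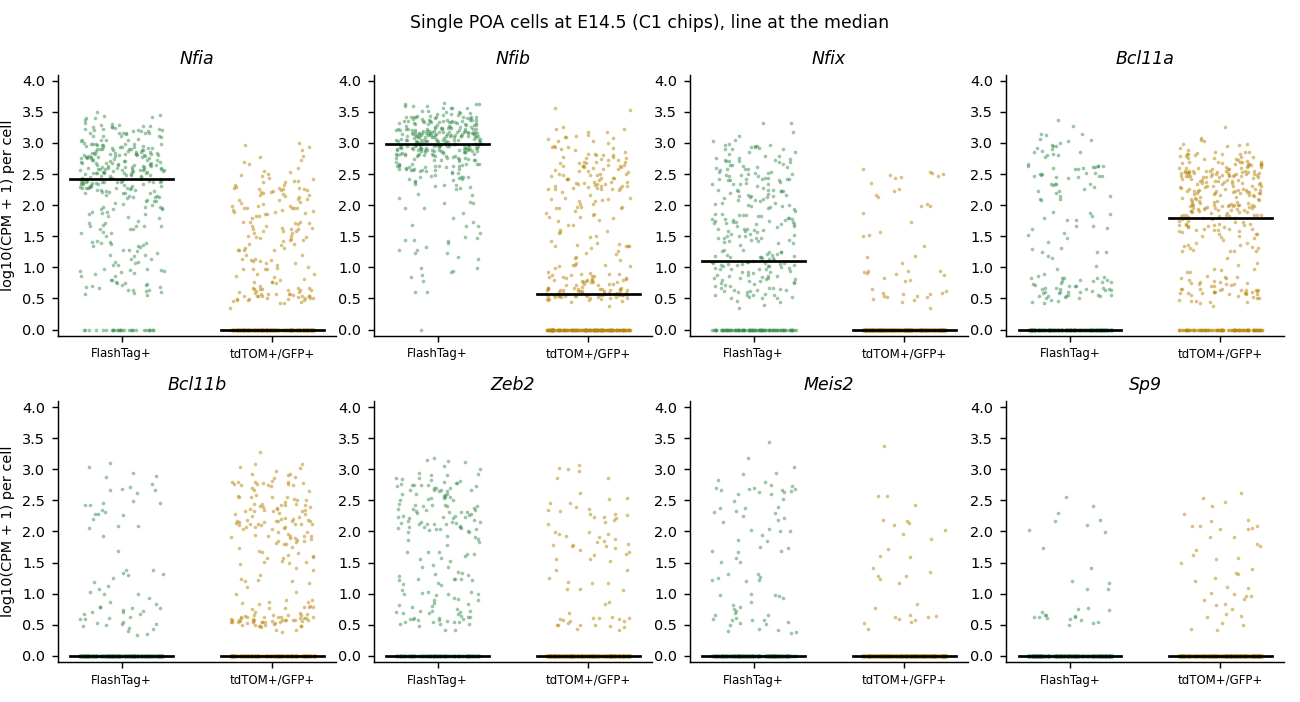
Single E14.5 POA cells on C1 chips: each point is 1 cell, the vertical axis is log10(CPM + 1), a log scale, and the line is the median of the 352 FlashTag+ (green) or 418 tdTOM+/GFP+ (ochre) cells. The medians of Nfia, Nfib and Nfix are higher in FlashTag+ cells, that of Bcl11a in tdTOM+/GFP+ cells, and the other 4 medians are at 0 in both.

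Bcl11b ran the other way, with 81.7 CPM (80.3 to 83.2) in tdTOM+/GFP+ and 28.5 CPM (27.5 to 29.5) in FlashTag+ cells, a log2 fold of 1.25. Its share at 169500 counts per cell was 40.5% (35.7 to 45.5) against 15.6% (11.6 to 20.3). Bcl11a was at 154 CPM (152 to 156) versus 88.0 CPM (86.2 to 89.8), a log2 fold of 0.74, and 71.1% (66.4 to 75.5) against 34.0% (28.6 to 39.8) of cells had a count at that depth. Its median cell was at 60.6 CPM in tdTOM+/GFP+ cells and at 0 in FlashTag+ cells. Bcl11a thus differed more in the share of cells than in the summed level.

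Zeb2 and Meis2 were lower in the tdTOM+/GFP+ cells, at 25.2 CPM (24.4 to 26.0) versus 106 CPM (104 to 108) for Zeb2 and 7.97 CPM (7.53 to 8.43) versus 42.8 CPM (41.6 to 44.0) for Meis2. The log2 folds were -1.72 and -1.55. A single cell held 38.9% of the Meis2 counts of the tdTOM+/GFP+ cells. Sp9 was under 10 CPM in both sorts, with a count in 8.40% (5.88 to 11.5) and 6.60% (4.02 to 10.1) of cells at 169500 counts, a gap not detectable at this number of cells. In all, 6 of 8 members were past 2-fold, where 22.8% of all genes were, 786 of them higher and 1598 lower in tdTOM+/GFP+ cells. The members' median was -1.64 against -0.11 over all genes. The summed level of 4 astrocyte genes, which radial progenitors share (Slc1a3 led with 1090 CPM), was 1283 CPM in FlashTag+ cells and 6.00 CPM over the 3 with a row in tdTOM+/GFP+ cells, and its part in the result was not tested.

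After birth the question was which members mark NGCs. The core NGCs were tdTOM+ cells with the label Lamp5 Plch2 Dock5 or Lamp5 Lsp1 (called Dock5 and Lsp1 here), 69 cells at P15 and 111 at P30, and the core non-NGCs were tdTOM- cells with any other subtype label, 89 and 96 cells. The authors gave the labels by matching each cell's expression to an adult reference, so a member may have helped to set a label, and differences between labels are a description. Cells left inconclusive by that matching are outside these groups.

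Bcl11a, Bcl11b and Nfia were higher in core NGCs at both ages. Bcl11a was at 312 CPM (304 to 319) in NGCs and, at P15, 90.9 CPM (87.3 to 94.6) in non-NGCs, and at 306 (300 to 312) versus 79.3 CPM (75.9 to 82.9) at P30, giving log2 folds of 1.67 and 1.82. Its median cell was at 237 CPM in NGCs and 11.2 CPM in non-NGCs at P15, and at 199 and 7.85 CPM at P30. At a matched depth of 132400 counts, 96.9% (89.2 to 99.6) of P15 NGCs and 60.3% (48.5 to 71.2) of non-NGCs had a count.

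Bcl11b was at 576 CPM (565 to 586) versus 220 CPM (214 to 226) at P15 and at 653 (644 to 662) versus 257 CPM (251 to 263) at P30, giving log2 folds of 1.35 and 1.31. Nfia was at 181 (175 to 187) versus 61.3 CPM (58.4 to 64.4) and at 155 (150 to 160) versus 48.5 CPM (45.8 to 51.4), log2 folds of 1.42 and 1.49. These were 3 of 7 members past 2-fold at P15, where 13.8% of all genes were, and 3 of 8 at P30, where 14.3% were. Single cells of the groups overlapped for every member. At P15 Nfia ran from 0 to 1337.27 CPM (median 66.4) in NGCs and from 0 to 603 CPM (median 6.55) in non-NGCs, and Bcl11b from 12.0 to 1776.13 CPM (median 497) against 0 to 1885.1 CPM (median 53.1).

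**Figure D3:**
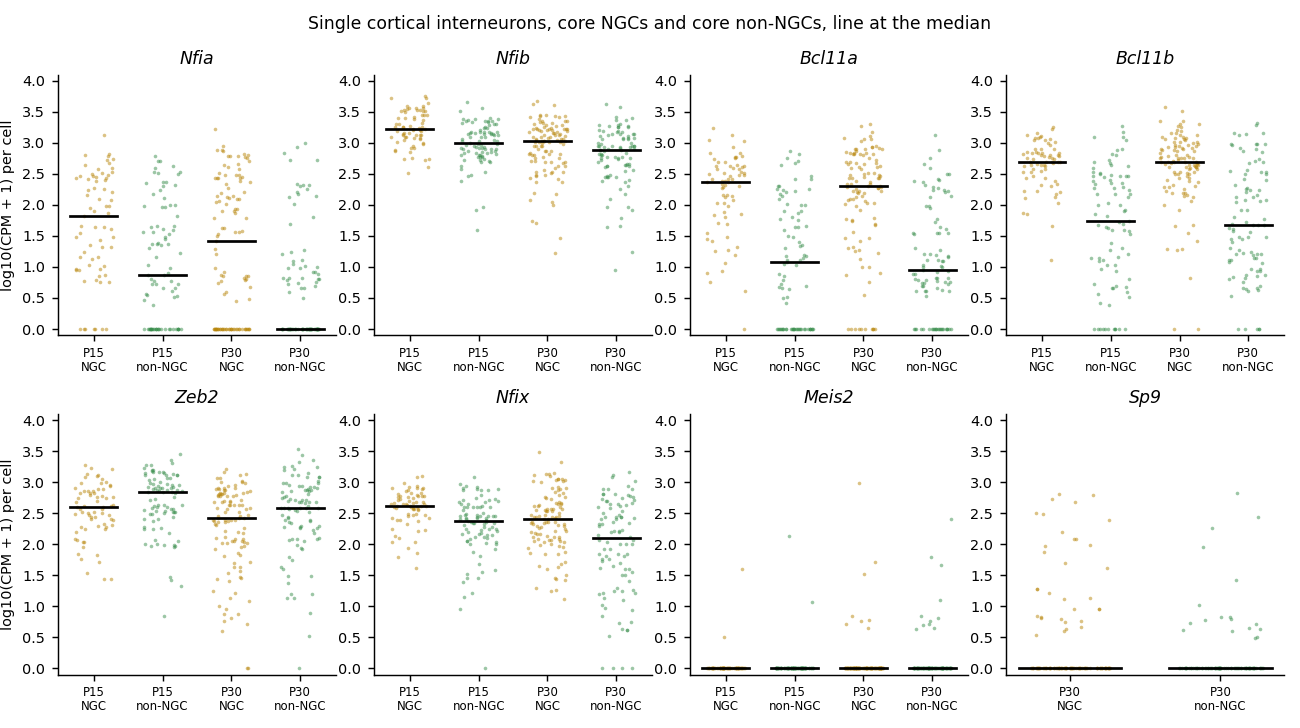
Single cortical interneurons at P15 and P30: each point is 1 cell, the vertical axis is log10(CPM + 1), a log scale, and the line is the median; ochre is core NGC (69 and 111 cells) and green core non-NGC (89 and 96 cells). The medians of Nfia, Bcl11a and Bcl11b are higher in core NGCs at both ages, those of Zeb2 are lower, and Meis2 and Sp9 have medians of 0.

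The other members differed by less than 2-fold. Nfib was in all of these cells at P15 and P30, at 2039 (2019 to 2059) versus 1180 CPM (1167 to 1193) at P15 and 1173 (1161 to 1186) versus 878 CPM (866 to 890) at P30. Nfix was at 454 (445 to 464) versus 314 CPM (307 to 321) and at 379 (372 to 386) versus 228 CPM (222 to 234). Zeb2 was the member on the other side, at 494 (484 to 504) versus 659 CPM (650 to 669) and at 363 (356 to 370) versus 556 CPM (547 to 566), log2 folds of -0.41 and -0.60. Sp9, measured at P30 only, was at 34.6 (32.5 to 36.8) versus 12.5 CPM (11.1 to 14.0), a log2 fold of 0.99 carried by 33 of 111 and 18 of 96 cells.

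Meis2 had few counts in these cells. At P15 it had 5 counts in 69 NGCs and 42 in 89 non-NGCs, and 0 in the 33 tdTOM+ Lsp1 cells, which allows up to 0.381 CPM. At P30 a single NGC held 96.1% of the 483 Meis2 counts. Over the whole sorts, inconclusive cells included, the direction of Nfia, Bcl11a and Bcl11b held with smaller steps, with log2 folds of 0.59, 0.48 and 0.58 at P15 and 0.74, 0.80 and 0.73 at P30, and no member was past 2-fold. The listed genes of striatal projection neurons, led by Foxp1 in NGCs and Penk in non-NGCs, differed between the groups: their summed level was 173 and 156 CPM in NGCs and 729 and 551 CPM in non-NGCs at P15 and P30, and their part in the result was not tested. Penk alone was at 846 and 1060 CPM in the tdTOM- Vip cells, which belong to the non-NGCs.

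**Figure D4:**
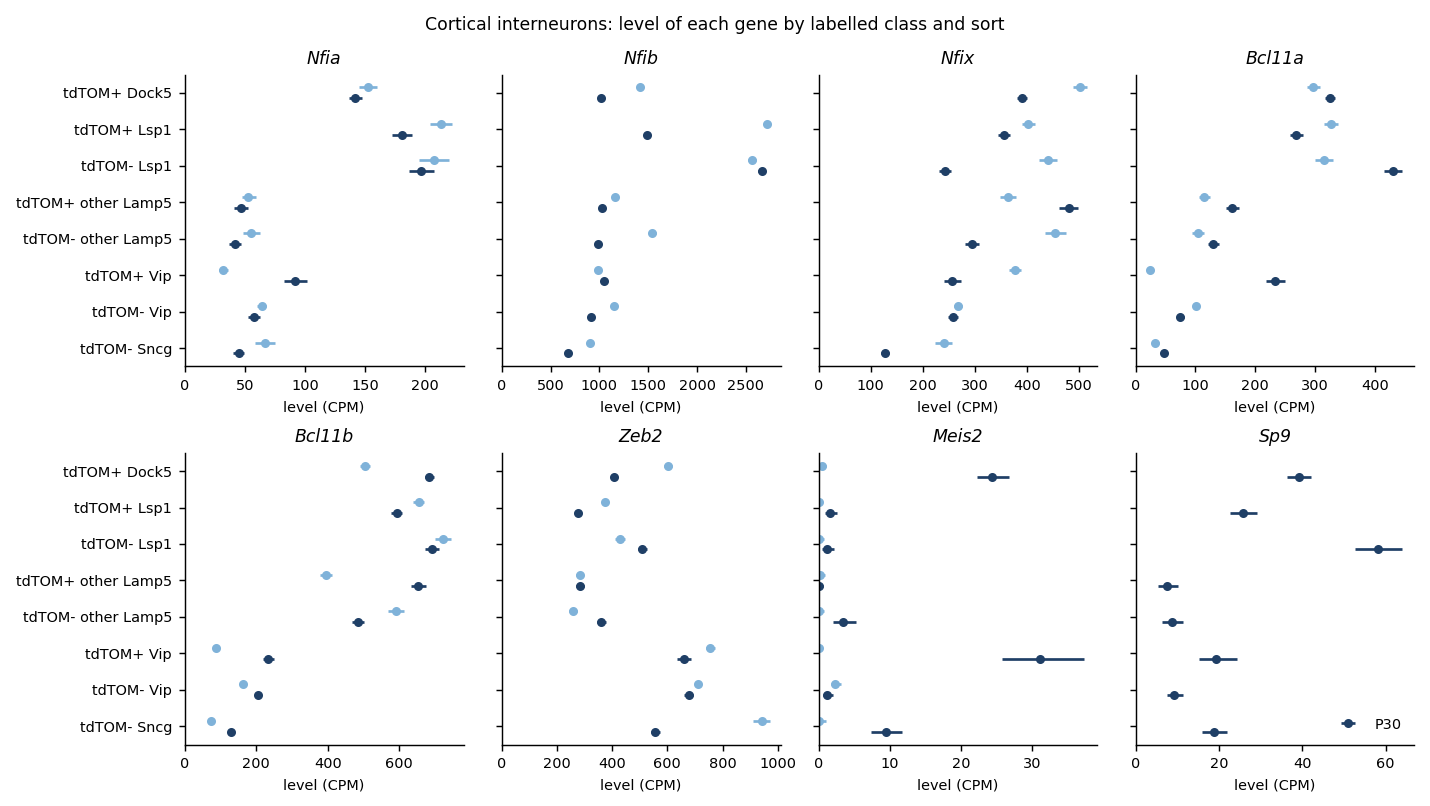
Level of each member (horizontal axis, CPM of summed counts) in 8 groups by subtype label and sort (rows), P15 in light and P30 in dark blue; bars are exact Poisson 95% intervals, and Sp9 has no P15 row. Nfia, Nfib and Bcl11a are highest in Lsp1 cells, Bcl11b in the pooled Lamp5 groups, Zeb2 in Vip and Sncg cells at P15, and Meis2 stays under 32 CPM.

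Across the classes of the plot by label and sort, the members had their own orders. At P15 Nfia was highest in Lsp1 cells of both sorts, at 213 (204 to 222) in tdTOM+ and 207 CPM (195 to 220) in tdTOM- cells, which did not differ beyond counting error, followed by Dock5 at 152 CPM (145 to 160). The 5 other classes lay from 31.9 to 66.3 CPM. Nfib had the same leaders, at 2717 (2684 to 2750) and 2560 CPM (2517 to 2604), and was lowest in Sncg cells at 901 CPM. Bcl11a had 3 leading classes, Lsp1 of both sorts and Dock5, from 298 to 327 CPM, and the other 5 lay from 24.6 to 115 CPM.

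Bcl11b followed the Lamp5 classes more broadly. At P15 its 5 Lamp5 classes lay from 395 to 722 CPM and the Vip and Sncg classes from 72.6 to 164 CPM, and at P30 the same classes lay from 484 to 691 and from 129 to 234 CPM. Zeb2 had the opposite order at P15, with Sncg and Vip classes from 711 to 941 CPM and the Lamp5 classes from 257 to 603 CPM. At P30 tdTOM- Lsp1 cells, at 510 CPM (493 to 526), came close to Sncg cells at 556 CPM, and the tdTOM+ Lsp1 cells were lowest at 278 CPM (267 to 288), not apart from tdTOM+ cells of other Lamp5 labels at 284 CPM.

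Among single labels with at least 5 cells the range was wider. Bcl11a was at 1.21 CPM in Vip Crispld2 Htr2c cells at P15 and 1.89 CPM in Vip Crispld2 Kcne4 cells at P30, both tdTOM-, and Bcl11b was at 13.8 CPM in Sncg Gpr50 cells at P30. Not every Lamp5 label was high in Bcl11b. At P30 the 5 tdTOM- Lamp5 Krt73 cells were at 202 CPM (180 to 226), like the tdTOM- Vip class at 204 CPM. The other Lamp5 labels at P30 lay from 593 to 695 CPM. Zeb2 peaked at 1066 CPM in Vip Chat Htr1f cells at P15, 5 cells, and at 1155 CPM in Vip Crispld2 Kcne4 cells at P30, 8 cells. Vip Chat Htr1f cells also had the highest Nfia at P15, 279 CPM.

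Within NGCs, Dock5 and Lsp1 cells were similar for most members. Neither age had many members past 2-fold: 0 of 7 at P15 with 19.3% of all genes past it, and 1 of 8 (Meis2) at P30 with 19.4%. Nfib was lower in Dock5 cells at both ages, at 1417 (1394 to 1440) versus 2717 CPM at P15 and 1014 (999 to 1028) versus 1485 CPM (1461 to 1509) at P30, giving log2 folds of -0.93 and -0.55. Nfia was also lower, with log2 folds of -0.46 and -0.33, and Zeb2 higher, at 603 (589 to 618) versus 374 CPM (362 to 387) and 407 (398 to 416) versus 278 CPM, log2 folds of 0.68 and 0.54. The Meis2 log2 fold of 1.56 at P30 rested on 1 Dock5 cell with 99.4% of the group's 467 counts, and without the highest cell of each group it was -0.12.

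The patch-seq cells gave Dock5 (20 cells) and Lsp1 (27 cells) by another route, with labels set by a classifier on their expression. They came from upper and deep cortical layers, unlike the chip cells, and layer was not compared between the subtypes here. Only Nfia was past 2-fold, 1 of 8 members where 18.3% of all genes were. It was at 21.1 CPM (18.0 to 24.5) in Dock5 and 99.5 CPM (96.8 to 102) in Lsp1 cells, a log2 fold of -1.82. Single Dock5 cells ran from 0 to 161 CPM with a median of 0, and 9 of 20 had a count. Single Lsp1 cells ran from 0 to 391 CPM with a median of 41.6, and 22 of 27 had a count. The Lsp1 cells were deeper, with a median of 1037400 counts against 378452 in Dock5 cells. At 101700 counts per cell, 35.3% (14.2 to 61.7) of 17 Dock5 and 72.0% (50.6 to 87.9) of 25 Lsp1 cells had Nfia, intervals that overlap.

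Nfib had a log2 fold of -0.46 in these cells, with medians of 177 CPM in Dock5 and 355 CPM in Lsp1 cells. Zeb2 was equal within counting error, at 147 (139 to 156) and 140 CPM (137 to 144). Sp9 was at 13.3 CPM (11.0 to 16.1) in Dock5 and 31.6 CPM (30.1 to 33.1) in Lsp1 cells, with a count in 6 of 20 and 20 of 27 cells. At 101700 counts per cell the Sp9 shares were 29.4% (10.3 to 56.0) and 60.0% (38.7 to 78.9), intervals that overlap. The deepest Lsp1 cell gave 30.0% of that group's counts. Without it Nfia stayed at -1.59, and Sp9 (-1.14) and Meis2 (1.05) passed 2-fold as well. Genes of the oligodendrocyte lineage, all 6 counted, summed to 1264 CPM in Dock5 and 5958 CPM in Lsp1 cells, and the highest single cell reached 5499.78 and 13864.4 CPM. In the 12 Dock5 and 16 Lsp1 cells with under 1000 CPM of them, the Nfia log2 fold was -2.46. That split did not use the other lists, of which several were also higher in Lsp1 cells. Glutamatergic genes summed to 23.6 CPM in Dock5 and 244 CPM in Lsp1 cells, and immune genes to 149 and 330 CPM. The Cajal-Retzius list, led by Reln, was lower in Lsp1 cells, at 466 and 87.5 CPM. The part of these lists in the Nfia difference was not tested.

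The Lsp1 label occurs in both sorts, so tdTOM+ and tdTOM- cells of 1 label could be compared, and the sort used the fluorescent proteins and not the members. At P15 the 33 tdTOM+ and 20 tdTOM- Lsp1 cells had nearly equal members, with 0 of 7 past 2-fold beside 23.7% of all genes and log2 folds from -0.19 to 0.09. At P30 the 35 and 28 cells again had 0 of 8 past 2-fold beside 30.4% of all genes, but several members were lower in tdTOM+ cells. Nfib was at 1485 versus 2661 CPM (2623 to 2699), Zeb2 at 278 versus 510 CPM and Bcl11a at 269 (259 to 279) versus 430 CPM (415 to 445), log2 folds of -0.84, -0.85 and -0.66. Sp9 was at 25.7 (22.7 to 29.1) versus 58.1 CPM (52.7 to 64.0), in 12 of 35 and 10 of 28 cells. A single cell held 47.0% of the tdTOM+ group's Sp9 counts, and 1 cell held 35.0% of the tdTOM- group's. Nfib in single cells ran from 291 to 4219.92 CPM (median 1422) in tdTOM+ and from 1065 to 5132.92 CPM (median 2509) in tdTOM- Lsp1 cells, so the sorts overlapped.

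Lsp1 and Vip cells of the tdTOM- sort were compared to take the sort out of the NGC comparison. These Vip cells are part of the core non-NGCs above, and the Lsp1 cells are not part of the core NGCs. At P15, 4 of 7 members were past 2-fold, all higher in Lsp1 cells, where 29.0% of all genes were: Bcl11b (log2 fold 2.08), Nfia (1.56), Bcl11a (1.55) and Nfib (1.15). At P30, 5 of 8 were past 2-fold where 36.2% were: Bcl11a (2.37), Sp9 (1.82), Bcl11b (1.71), Nfia (1.62) and Nfib (1.53). Sp9 rested on few cells, with a count in 10 of 28 Lsp1 cells, 1 of which held 35.0% of that group's counts. At 136200 counts per cell the Sp9 shares were 32.1% (15.9 to 52.4) in Lsp1 and 17.9% (7.54 to 33.5) in Vip cells, intervals that overlap. Bcl11b was at 722 CPM (699 to 746) in Lsp1 and 164 CPM in Vip cells at P15 and at 691 (671 to 710) versus 204 CPM at P30. Nfix (0.70 and -0.08) and Zeb2 (-0.72 and -0.40) stayed under 2-fold. The members' median was 1.15 at P15 and 1.57 at P30, against -0.09 and -0.03 over all genes.

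**Figure D5:**
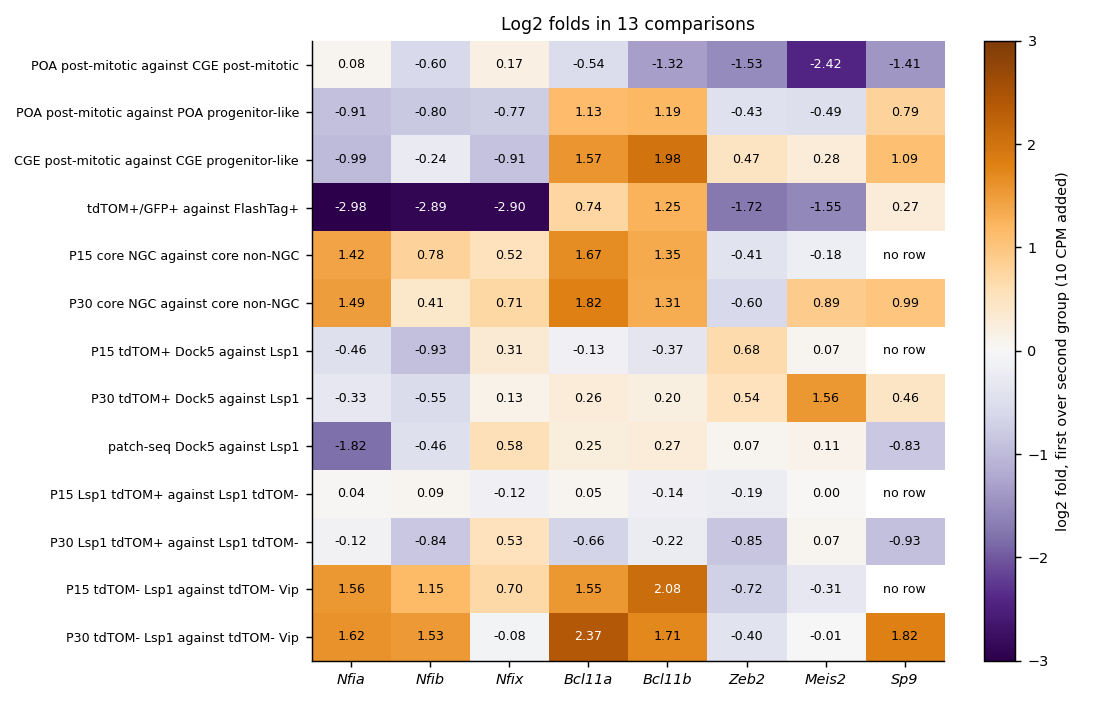
Log2 fold of each member (columns) in the 13 comparisons (rows), first group over second after adding 10 CPM; purple is lower and orange higher in the first group, with the value printed in each cell and the colour scale cut at 3. Nfia, Nfib and Nfix are negative in tdTOM+/GFP+ against FlashTag+ cells, and Bcl11a and Bcl11b are positive there and in both core NGC rows.

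At most 4 relatives and partners of the members were past 2-fold in any of the 13 comparisons. Of 13 relatives, among them Nfic, Zeb1, Meis1, Meis3, Sp1, Sp3, Sp4 and Sp8, 1 was past 2-fold between POA and CGE post-mitotic cells, beside 3.41% of all genes: Sp8, the close relative of Sp9, at 12.5 versus 58.9 CPM (log2 fold -1.62). In the CGE, Sp8 (1.86) and Pbx3 (1.02), a partner of Meis proteins, were higher and Zeb1 (-1.10), the relative of Zeb2, was lower after exit, beside 11.1% of all genes. In the tdTOM+/GFP+ cells, Meis1 (log2 fold -1.76) was the 1 relative past 2-fold of 12 that passed the filter, beside 22.8% of all genes. Between Dock5 and Lsp1 cells, 4 of the 12 relatives that passed the filter were past 2-fold at P15, beside 19.3% of all genes, among them Pbx3 (1.90), Zeb1 (1.35) and Sp8 (-2.77). At P30 these were 3 of 12 beside 19.4%, namely Pbx3 (2.59), Pknox1 (1.52) and Meis3 (1.42). Between the P30 Lsp1 sorts 4 of 13 were past 2-fold beside 30.4%, and in P15 Lsp1 against Vip cells 4 of 12 beside 29.0%. The median log2 fold over the relatives was -0.08 between the regions and -0.32 between the sorts of E14.5 cells.

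Of 22 other interneuron transcription factors, 8 were past 2-fold lower and 0 higher in POA than CGE post-mitotic cells, where 3.41% of all genes were past 2-fold in either direction. Among them were Dlx2, Dlx5, Sox6, Nr2f1, Maf and Tcf4, with log2 folds from -1.97 to -1.11. The median over the list was -0.67. Since Dlx5 and Dlx6 helped to make the classes, their steps between classes are no result. In tdTOM+/GFP+ cells Dlx1 (3.04), Lhx6 (1.66) and Dlx2 (1.49) were among the 6 higher, and Npas3 (-2.93) and Nr2f1 (-1.12) were lower, of 21 that passed the filter and beside 22.8% of all genes. In core NGCs, Tox3 (2.66 at P15, 1.95 at P30) and Tox (1.68 and 1.05) were higher and Npas1 (-3.99 and -3.83), Npas3 (-2.47 and -1.95), Prox1 (-1.41 and -1.14) and Satb1 (-2.15 and -1.32) were lower at both ages. The members that were higher in core NGCs thus stood beside more factors of the list that were lower than higher, 6 against 3 of the 14 that passed the filter at P15 and 4 against 3 of 20 at P30, where 13.8% and 14.3% of all genes were past 2-fold in either direction.

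For each member the 2 genes whose levels went most alike over the 16 P30 groups of 1 label and 1 sort with at least 5 cells were found by Pearson's r of log2(CPM + 10), and r was then read in the 12 such groups at P15. The groups share chips and sorts, and the leading r at P30 is the highest among all genes searched. A value at P15 was to be had for 13 of the 16 genes, and 4 of these had a like r there. These were Lamp5 (0.862 at P30, 0.647 at P15) and Nrgn (0.861 and 0.729) for Bcl11b, Kcnt1 (0.886 and 0.709) for Bcl11a and Fgfr1 (0.827 and 0.666) for Zeb2. Rrn3, the gene closest to Nfia at P30 (0.842), had an r of -0.0337 at P15, and the 2 genes closest to Meis2 at P30, Nod1 and Mtmr11, were at -0.154 and -0.160.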

How the data were processed

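All 7 tables hold counts per gene and cell as the authors deposited them, with no normalization. For C1 chip and patch-seq cells the authors aligned reads to GRCm38 with STAR, removed duplicates by UMI with UMI-tools and counted unambiguous exonic reads per gene by strand. For droplets they used Cell Ranger with mm10. They left out doublets seen on the chip, poor cells and, at E14.5, clusters that were not GABAergic. No doublet caller was run here. The 2 droplet libraries share 12 cell barcodes.

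Each chip column was matched to its sample by the plate position and table name in the labels, and each droplet table was 1 library. Depth per cell was 2515 to 65782 counts in droplets, 18412 to 991458 on chips and 33826 to 15968484 in patch-seq. A group's CPM is its summed counts for a gene over its total counts. Intervals are exact Poisson and Clopper-Pearson at 95%. Shares of cells were read after thinning to 1 depth, 3200 UMIs in droplets and the 10th percentile of the cells compared on chips and in patch-seq, with shallower cells left out. Numbers of cells with a count that are given without a percentage or depth are over all counts. No test was run, since no label names an animal. Genes of at least 10 CPM in either group made up the background. The scripts were tested on simulated data. Python 3.11.15, numpy 2.4.6, pandas 2.3.3, scipy 1.17.1 and matplotlib 3.10.9 were used.

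The genes named are all 8 members, the 13 relatives and partners and 22 other factors past 2-fold, and 2 genes of like pattern per member. Some genes of these lists are not reported here. Members and lists were chosen with earlier results of these data known. Alternatives changed the added CPM, the filter, the classes, the summary over cells and the cells kept.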

Additional observations from a re-analysis of the deposited data

Results flagged for a closer look

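A member had opposite directions under the same contrast at 2 ages or in 2 regions in 10 cases. In 7 of them the intervals of the groups were apart on both sides, and these are given here. None of these differences was tested, and each of the 7 ended under at least 1 alternative. In post-mitotic against progenitor-like droplet cells, the log2 fold of Zeb2 was -0.43 in the POA and 0.47 in the CGE, and that of Meis2 was -0.49 and 0.28. In the share of cells at 3200 UMIs, Meis2 was lower after exit in both regions, at 16.4% against 27.8% in the POA and 56.2% against 72.2% in the CGE, so the CGE direction depended on the measure. In the cells with under 3 UMIs of other cell types' genes, POA Zeb2 was at 0.37 and CGE Meis2 at -0.22. As a mean of single-cell logs CGE Zeb2 was at -0.01 and CGE Meis2 at -1.67. Under both settings neither gene had opposite directions.

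In core NGC against core non-NGC cells, Meis2 had a log2 fold of -0.18 at P15, where it had 5 and 42 counts, and of 0.89 at P30, where 1 cell held 96.1% of the NGC counts. Between tdTOM+ Dock5 and Lsp1 cells, Bcl11a had a log2 fold of -0.13 at P15 and 0.26 at P30, and Bcl11b had -0.37 and 0.20. Between tdTOM+ and tdTOM- Lsp1 cells, Nfib had a log2 fold of 0.0855 at P15 and -0.84 at P30, and Nfix had -0.12 and 0.53.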

How the results depend on the processing

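Of the 32 member differences past 2-fold, all but Meis2 between P30 Dock5 and Lsp1 cells and Nfib between Lsp1 and Vip cells kept their direction under every alternative run. Meis2 turned to -0.22 as a mean of single-cell logs, -0.18 in plate rows 21 to 40, -0.0888 as a share of thinned cells and -0.12 without the highest cell. Nfib turned to -0.0258 at P15 and -0.0069 at P30 as a share of thinned cells, where every cell had a count.

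The number of members past 2-fold depended on the setting, and so did the number of all genes past it, whose range is given after this list. The share of all genes under each setting is not printed, so these member counts are no result about the members. With 100 CPM added it was 2 of 8 for POA against CGE, 0 for the POA classes, 3 for the E14.5 sorts, 0 for P30 Dock5 against Lsp1, 0 for patch-seq and 3 for P30 Lsp1 against Vip. With 1 CPM added it was 5 for the P30 core, 2 for patch-seq and 1 for the P30 Lsp1 sorts. Mean CPM of single cells gave 6 for the POA classes, 5 for the CGE classes, 0 for P30 Dock5 and 3 for patch-seq, and the mean of logs gave 7, 7, 3 for patch-seq and 1 for the P30 Lsp1 sorts. Thinned shares gave 0 for the P15 core, 1 for P15 and 0 for P30 Dock5, 0 for patch-seq and 0 for Lsp1 against Vip at both ages. Classes with a 3-fold marker margin gave 5 in the POA and 5 in the CGE. Leaving out cells with 3 or more UMIs of other cell types' markers gave 2 for POA against CGE and 5 for the CGE classes. Leaving out the deepest 5% gave 5 for the CGE classes. Whole sorts gave 0 for both cores. Deeper cells gave 1 for P15 Dock5, 2 for patch-seq and 1 for the P30 Lsp1 sorts. Plate rows 1 to 20 gave 2 for P30 Dock5 and 3 for the P30 Lsp1 sorts, and rows 21 to 40 gave 2 for P15 Dock5, 0 for P30 Dock5 and 1 for the P30 Lsp1 sorts. Without the highest cell of each gene it was 0 for P30 Dock5, 2 for patch-seq and 1 for the P30 Lsp1 sorts. Both patch-seq settings chosen after seeing the data, without the deepest Lsp1 cell and with low oligodendrocyte genes, gave 3. The cause of these shifts was not tested.

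The other 118 such counts moved by 1.5 times at most, and a like count need not hold like genes. The count of all genes past 2-fold, 304 for POA against CGE and 2384 for the E14.5 sorts, ranged over settings from 35 to 724 and from 304 to 3888. For the cores it was 1249 (114 to 2089) at P15 and 1481 (105 to 2677) at P30. It was 770 (84 to 2244) for the POA classes, 1007 (113 to 1910) for the CGE classes and 1820 (72 to 3127) for patch-seq. Between tdTOM+ Dock5 and Lsp1 cells it was 1719 (35 to 2722) at P15 and 1974 (19 to 3769) at P30. The Lsp1 sorts had 2091 (25 to 3134) and 3085 (58 to 4698), and Lsp1 against Vip cells 2612 (239 to 3556) and 3760 (226 to 4948). Leaving out mitochondrial genes was not run at P15, where the table has no such rows. No paired analysis was possible because no replicate numbers link the groups and no test was run. Most cells had no count of Sp9 in droplets or in the P30 groups compared, or of Meis2 after birth, so their shares and folds rest on few cells.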

Other observations

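The cells that the authors' matching left inconclusive were many: 85 tdTOM+ and 81 tdTOM- at P15, and 154 and 156 at P30. In these cells Bcl11a, Bcl11b and Nfia were higher in the tdTOM+ sort, the side they had in core NGCs. The cells were chosen by the outcome of the matching, and the core groups differed in label as well as sort. Within Vip cells the side by sort differed between the ages. The Vip class pools labels of unlike level, and the mix of labels was not compared between the sorts. At P30, Bcl11a was at 1.89 CPM in tdTOM- Vip Crispld2 Kcne4 cells and 259 CPM in tdTOM- Vip Igfbp6 Car10 cells. At P15 tdTOM+ Vip cells were lower than tdTOM- ones in Bcl11a (24.6 against 101), Bcl11b (88.4 against 164) and Nfia (31.9 against 63.8 CPM). At P30 they were higher, at 234 against 75.0, 234 against 204 and 91.7 against 57.4 CPM. Bcl11b was at 529 CPM (520 to 539) in tdTOM+ and 251 CPM (245 to 258) in tdTOM- inconclusive cells at P15, and at 537 (529 to 545) against 327 CPM (321 to 333) at P30. Bcl11a was at 251 (245 to 258) against 151 CPM (146 to 156) and at 273 (268 to 279) against 148 CPM (144 to 152). Nfia was at 148 (143 to 153) against 79.1 CPM (75.5 to 82.9) and at 87.8 (84.8 to 90.9) against 43.2 CPM (41.0 to 45.5). Single cells overlapped, with medians of Bcl11a at 166 and 18.3 CPM at P15 and 119 and 18.2 CPM at P30. Zeb2 was lower in the tdTOM+ cells, at 464 against 558 CPM at P15 and 411 against 467 CPM at P30.

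Vip cells of the tdTOM+ sort, which are cells of the Hmx3 lineage outside the NGC labels, had little Bcl11a at P15, 24.6 CPM (21.6 to 27.9) in 24 cells with a median of 2.54, and 234 CPM (218 to 250) at P30 in 15 cells with a median of 182. In tdTOM- Vip cells the level was 101 CPM at P15 and 75.0 CPM at P30. The 4 tdTOM- cells labelled Dock5 at P15 had Bcl11a at 590 CPM (554 to 628) and Nfia at 52.5 CPM (42.2 to 64.7). The 36 tdTOM+ Dock5 cells were at 298 and 152 CPM. The intervals leave out the spread between cells, so values of 4 cells do not show a difference between the sorts. Ages and sorts were 1 sample each, so none of these differences was tested.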
